A study of Mus musculus with 7 samples.

Results

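The genes described here are 35 genes of the hypoxia response and of glycolysis, chosen by name from a count table of 23282 rows. They comprise the hypoxia-inducible factor (HIF) alpha subunits, well-known targets of HIF, and the enzymes that convert glucose to lactate. RNA came from glioblastoma cells of adult C57BL/6 mice, sorted for tdTomato, a red fluorescent protein, in 3 WT and 4 Fyn-KO libraries. Fyn is a Src-family tyrosine kinase, and the comparison asks what its loss does to the tumour cell transcriptome. The strain, age, disease and sort are common to both groups, and Fyn genotype is the 1 labelled difference. How the tumours and the Fyn deletion were made, what drives tdTomato, and whether each numbered tumour was 1 animal are not stated in the sources used here. The p-values therefore measure the spread between these libraries. Libraries were made with QuantSeq, which reads tags from the 3' end of polyadenylated RNA, so a level is given in counts per 1000000 library counts (CPM) and was not divided by gene length.

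As background, HIF is a dimer of an oxygen-regulated alpha subunit and a constant ARNT subunit. With oxygen present, prolyl hydroxylases mark the alpha subunit for destruction by the von Hippel-Lindau complex, so much of HIF control acts on protein and not on mRNA. When oxygen is short the dimer binds the core letters ACGTG or GCGTG and raises genes for angiogenesis, glucose uptake, glycolysis, acid export, mitophagy and collagen processing. Glioblastoma is known for hypoxic zones and for high glycolysis.

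Total counts ran from 11911864 to 16371244 in WT and from 8976745 to 10396507 in Fyn-KO. Fyn itself was at 1039, 720 and 1604 CPM in the WT libraries and at 105, 106, 74.5 and 190 CPM in the Fyn-KO libraries. The mean was 9.43 times lower in Fyn-KO, which matches the labels in direction. Tags of Fyn remained in each Fyn-KO library, and whether Fyn was lost within the tumour cells was not tested. The labelled cell type held less well. The summed level of 8 oligodendrocyte-lineage and glioma markers was 6671 to 11669 CPM among the WT libraries and 152 to 843 CPM in Fyn-KO, while 10 markers of steroid-producing cells summed to 96.2 to 480 CPM for WT (Nr5a1, Lhcgr and Cyp17a1 at 0) and 24591 to 29526 CPM in Fyn-KO. The WT libraries also held fewer genes, 7723 to 9924 with a count against 13535 to 14548 in Fyn-KO, and Rn45s, a ribosomal RNA precursor, took 1.41% to 2.92% of counts in WT and 10.5% to 16.6% in Fyn-KO. In such bulk RNA, fewer cells of a type and less RNA per cell cannot be told apart. These differences move with the genotype in every library, so they and the loss of Fyn cannot be told apart in any result that follows, and their part in the results was not tested.

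The core HIF letters were searched in the 250 bases before the RefSeq start (GRCm38.p6) of each gene, on both strands (ACGTG or GCGTG, which read CACGT or CACGC from the other strand; the palindrome CACGTG counts once on each strand). Of the 35 members, 31 had a window, and 24 of these (77.4%) held at least 1 match, against 5595 of 9888 tested genes with a window (56.6%) and 10431 of all 27025 windows (38.6%). The median number of CG dinucleotides in a window was 14 for the members and 16 for the tested genes. Each of the 5 members that were higher in Fyn-KO (below) had a match, as did 19 of the other 26 (73.1%). The stretches that hold the matches are shown for those 5 members, for the mitophagy receptor Bnip3 and for the lactate dehydrogenase Ldha. They are printed 5′ to 3′ on the strand of the gene, with the matches in capitals.

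Egln3, chr12:54204086-54204115, minus strand: tgtgcatctcagACGTGagatccaggtttt

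Adm, chr7:110627555-110627584, plus strand: tttagaagcaagCACGCtggagagggagga

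Adm, chr7:110627591-110627620, plus strand: ggcaaatctgacCACGCccaccgtccgccc

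Car9, chr4:43506996-43507025, plus strand: ctatttccgatgCACGTacagcccgtccac

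P4ha2, chr11:54100805-54100834, plus strand: tggtgccggtccCACGCggcgcaaggaggt

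P4ha2, chr11:54100838-54100867, plus strand: catcgcatACGTGcagcGCGTGgcggctcg

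Pfkfb3, chr2:11553972-11554001, minus strand: ctccgcgccgtgACGTGccaagctgtgacc

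Bnip3, chr7:138909597-138909626, minus strand: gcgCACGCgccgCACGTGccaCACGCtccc

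Bnip3, chr7:138909524-138909553, minus strand: ggctccgccgccGCGTGcgtcccgccccgc

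Ldha, chr7:46845647-46845676, plus strand: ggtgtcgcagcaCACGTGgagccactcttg

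Ldha, chr7:46845751-46845780, plus strand: gcctaCACGTGggttcccgCACGTccgctg

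Egln3, Car9 and Pfkfb3 each had 1 match, Adm had 2 and P4ha2 had 3. Bnip3 and Ldha had 5 each, with the palindrome once in Bnip3 and in both stretches of Ldha. Neither of these last genes passed the test, and no relation between the number of matches and the change was tested. A match is a run of letters and not a measured binding site. The stretches of Car9, P4ha2, Pfkfb3 and Ldha lie within the GENCODE M21 bounds of the gene, which begins further upstream there. For each gene shown except Ldha, bases after the RefSeq start were found in a GENCODE transcript of the gene.

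Among the 33 members with enough counts to test, 5 were higher in Fyn-KO at a Benjamini-Hochberg adjusted p under 0.05 in the edgeR quasi-likelihood test, 0 were lower and 28 did not pass. The background was 19% of the 13122 tested genes higher and 3.51% lower, so 5 of 33 is no more than the table as a whole gave. At an unadjusted p under 0.05, 8 members were higher and 1 was lower. How many of all tested genes met that limit was not counted, here or in the fits below. Counts of members at that limit are therefore not read as a result about the members. The median log2 fold change, Fyn-KO minus WT, was 0.27 for the members and 0.45 for all tested genes. All 5 passed the filter on low counts through their Fyn-KO libraries alone. Of the 22 members that reached 10 counts in 2 or more WT and 3 or more Fyn-KO libraries, 0 were higher (background 0.807%) and 0 lower (background 2.16%). That fit had 2 members higher and 0 lower at an unadjusted p under 0.05. With limma-voom 0 members passed in either direction, against 24 higher and 320 lower of all 13122 tested genes. At an unadjusted p under 0.05 limma-voom had 3 members higher and 1 lower. With DESeq2 7 members were higher (the 5 with Bnip3 and Car12) and 1, Hk1, was lower, of 29 with an adjusted p. The DESeq2 background was 3564 genes higher and 918 lower of 11078 with an adjusted p. Ankrd37 and Eno1 had too few counts to test.

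**Figure D1:**
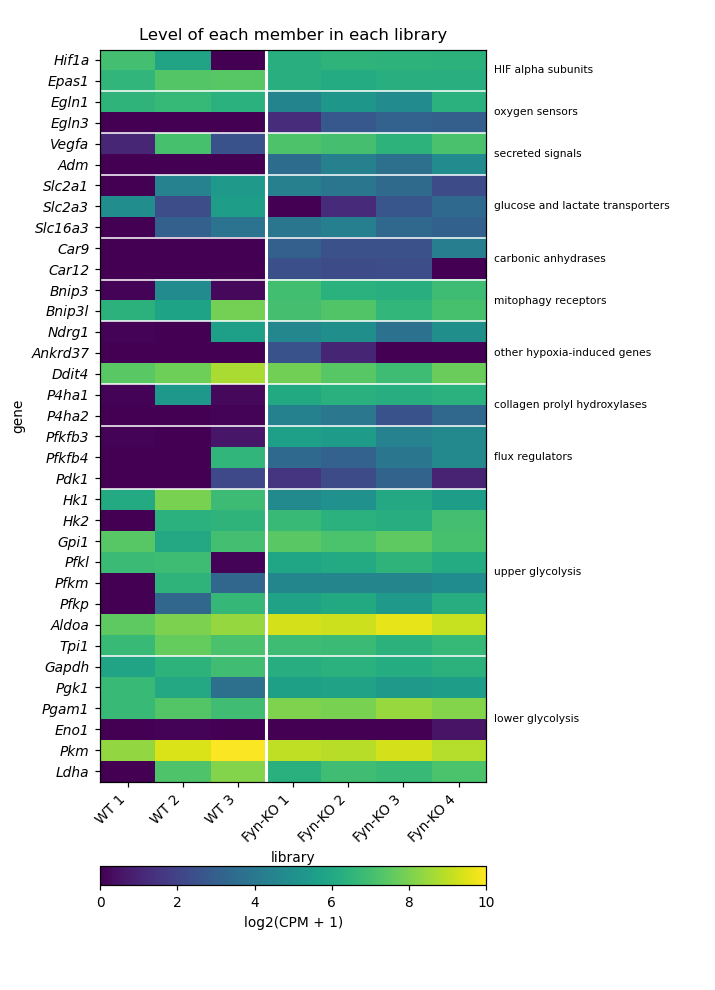
Level of each of the 35 members (rows, grouped by role) in each library (columns), as log2(CPM + 1), from dark (0) to yellow (10). The dark cells crowd into the WT columns, most of all WT 1, where 19 of the 35 members had 0 or 1 count, against 1 or 2 members in each Fyn-KO library.

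The WT libraries differed among themselves more than the Fyn-KO libraries did. Of the 35 members, 19, 11 and 9 had 0 or 1 count in WT 1, WT 2 and WT 3, and 2, 1, 2 and 2 in the Fyn-KO libraries. Over all tested genes the shares at 0 or 1 count were 52.2%, 30.8% and 43.2% in WT, against 1.70% to 4.38% in Fyn-KO, so the absences were not particular to these genes. Hif1a, Pfkl and Ldha each passed 100 CPM in some WT library and were under 1 CPM in another, 3 of the 16 members that reached that level (18.75%), while 0 of 11 did so in Fyn-KO. Of all tested genes that reached it, 1946 of 4771 (40.8%) swung so in WT and 1 of 2524 in Fyn-KO. At these limits the swing was less common among the members, a difference that was not tested. Vegfa (1.10 and 136 CPM in WT) just missed the limits. Hk2, Pfkm, Pfkfb4 and Pfkp also missed them, with 0 CPM in a WT library and 88.6 to 98.8 CPM in another. The summed level of the members was 1845, 3059 and 3625 CPM across WT and lay within 3117 to 3337 CPM in Fyn-KO, so the groups overlapped in their total.

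The alpha subunits of HIF showed no difference that passed the test. Hif1a, the broadly expressed subunit, was at 130, 56.1 and 0 CPM among the WT libraries, against 77.04, 90.5, 88.1 and 85.7 CPM in Fyn-KO. The Fyn-KO values lay inside the WT range, and WT 3 held no Hif1a tag (log2 fold change 0.52 ± 1.61 SE, adjusted p = 0.886). Epas1, which codes for HIF-2 alpha, was at 94.7, 159 and 166 CPM for WT, against 77.8, 69.5, 76.3 and 77.3 CPM in Fyn-KO. Every Fyn-KO library was below every WT library, yet the fitted difference did not pass (log2 fold change -0.997 ± 0.56 SE, adjusted p = 0.284, exact permutation p = 0.0286, the smallest that 35 splits of 7 libraries allow). As a share of Hif1a and Epas1 counts, Hif1a was 57.8%, 26.1% and 0% in WT, against 49.8% to 56.6% in Fyn-KO.

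Of the oxygen sensors, Egln3 rose and Egln1 did not pass. Egln3 codes for prolyl hydroxylase PHD3, itself a HIF target. It had no count in the 3 WT libraries and was at 1.39, 5.67, 7.88 and 7.24 CPM in Fyn-KO (mean 5.55 ± 2.92 SD, n = 4). Its mean was 22.0-fold above a floor of 3 counts in a library (0.252 CPM in the shallowest WT library; adjusted p = 0.0124). This floor covers counting error only. Since many genes swung between WT libraries, it does not bound the WT level, here or for Adm and Car9. Egln1, the main hydroxylase PHD2, was at 90.7, 104 and 82.7 CPM across WT, against 21.7, 38.0, 27.1 and 82.7 CPM in Fyn-KO. Fyn-KO 4 reached the lowest WT level to within 0.1 CPM, the other Fyn-KO libraries were well below it, and the difference did not pass (log2 fold change -1.20 ± 0.77 SE, adjusted p = 0.358).

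Of the secreted signals, Adm, the vasodilator peptide adrenomedullin, rose, and Vegfa, the main angiogenic growth factor, did not pass. Adm had no count in WT and was at 10.5, 19.2, 11.8 and 27.3 CPM in Fyn-KO (mean 17.2 ± 7.73 SD, n = 4), 68.4-fold above the same floor (adjusted p = 0.0121). Like Egln3, Adm thus had no tag in any WT library. Vegfa was at 1.10, 136 and 4.79 CPM among the WT libraries, against 145, 131, 87.7 and 137 CPM in Fyn-KO. WT 2 lay at the Fyn-KO level and the other WT libraries far below it, so the groups overlapped (adjusted p = 0.502). Without WT 2 Vegfa passed (adjusted p = 0.00979), in a fit that called 4585 of 13991 genes higher. WT 2 was its high WT library, so that pass is no support for a difference.

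The transporters gave low and scattered levels, and none of the 3 passed. Slc2a1, the glucose transporter GLUT1, was at 0, 20.9 and 39.9 CPM for WT and 19.4, 14.2, 9.85 and 3.90 CPM in Fyn-KO. Slc2a3, the high-affinity transporter GLUT3, was at 28.8, 4.09 and 46.8 CPM across WT and 0, 1.35, 5.47 and 9.69 CPM in Fyn-KO, with WT 2 inside the Fyn-KO range (adjusted p = 0.331). Slc16a3, the lactate exporter MCT4, was at 0, 7.39 and 13.01 CPM among the WT libraries and 14.2, 18.7, 9.30 and 7.58 CPM in Fyn-KO. All 3 overlapped between the groups.

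The carbonic anhydrases Car9 and Car12, membrane enzymes that handle the acid of glycolytic cells, had no count in any WT library. Car9 rose, with 7.35, 4.52, 4.60 and 18.3 CPM in Fyn-KO (mean 8.68 ± 6.52 SD, n = 4), 34.5-fold above the floor used for Egln3 (adjusted p = 0.0121). Car12 was at 4.48, 4.04, 4.16 and 0 CPM in Fyn-KO, so that Fyn-KO 4, the highest library for Car9, had none. Car12 missed the threshold (adjusted p = 0.0539) and passed without Fyn-KO 4 (adjusted p = 0.02002), in a fit that called 2370 of 12498 genes higher. That fit drops the Fyn-KO library without a Car12 count, so the pass is no support for a difference.

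The mitophagy receptors, which mark mitochondria for degradation, did not pass. Bnip3 was at 0.0783, 27.2 and 0.168 CPM for WT, against 124, 83.4, 77.8 and 118 CPM in Fyn-KO. Every Fyn-KO library was above every WT library, but WT 2 stood far above the other WT libraries (log2 fold change 3.71 ± 1.84 SE, adjusted p = 0.213). Without WT 2 Bnip3 passed (adjusted p = 0.00455), in a fit that called 4585 of 13991 genes higher. WT 2 held nearly all WT counts of Bnip3, so that pass is no support for a difference. Bnip3l, its paralog NIX, was at 86.0, 55.0 and 242 CPM across WT, against 132, 153, 97.3 and 136 CPM in Fyn-KO, which lay inside the WT range. Bnip3 made up 0.0909%, 33.1% and 0.0693% of the counts of the pair in WT and 48.5%, 35.3%, 44.4% and 46.5% in Fyn-KO. The shares did not overlap (exact permutation p = 0.0286, adjusted p = 0.114 over the 8 shares tested).

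Of the remaining hypoxia-induced genes, Ddit4, an inhibitor of mTORC1 also called REDD1, had the highest level. It was at 175, 219 and 424 CPM among the WT libraries, against 233, 167, 117 and 208 CPM in Fyn-KO, with overlap between the groups (adjusted p = 0.397). Ndrg1, a stress-response gene, was at 0.0783, 0 and 49.4 CPM for WT and 12.6 to 30.9 CPM in Fyn-KO, so WT 3 alone among the WT libraries held it above 1 CPM. Ankrd37 had 55 counts in all, 0 of them in WT.

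The collagen prolyl 4-hydroxylases, which stabilise collagen, differed in outcome, and P4ha2 rose. It was at 0, 0 and 0.0839 CPM in WT, a total of 1 count, and at 19.8, 14.4, 4.71 and 9.02 CPM in Fyn-KO. The ratio of pooled levels was 498 (95% interval 89.0 to 19729, counting error only; adjusted p = 0.0137). P4ha1 was at 0.0783, 39.0 and 0.168 CPM across WT, against 66.2, 81.3, 74.7 and 81.9 CPM in Fyn-KO. As with Bnip3, WT 2 held most of the WT counts and still lay below every Fyn-KO library. P4ha1 did not pass (adjusted p = 0.377) until WT 2 was left out (adjusted p = 0.00455). The fit without WT 2 called 4585 of 13991 genes higher and left P4ha1 almost without WT counts, so that pass is no support for a difference.

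Of the regulators of glycolytic flux, Pfkfb3 rose. It codes for the enzyme that makes fructose 2,6-bisphosphate, the activator of phosphofructokinase. It was at 0.0783, 0 and 0.504 CPM in WT, 7 counts in all, and at 48.5, 44.8, 20.4 and 25.4 CPM in Fyn-KO (mean 34.8 ± 13.96 SD, n = 4; adjusted p = 0.0329). This was the highest level among the 5 members called higher. The call was lost when any 1 of the Fyn-KO libraries was left out (adjusted p = 0.0911, 0.0919, 0.0659 and 0.0795 without Fyn-KO 1 to 4), whereas those of Egln3, Adm, Car9 and P4ha2 held without each of the 7 libraries. Pfkfb4, its paralog, was at 0, 0 and 94.3 CPM among the WT libraries and 7.79 to 24.95 CPM in Fyn-KO. Pdk1, a kinase that inhibits pyruvate dehydrogenase, was at 0, 0 and 3.61 CPM for WT and 1.003 to 8.10 CPM in Fyn-KO. Neither Pfkfb4 nor Pdk1 passed, and in both WT 3 was the only WT library with a count. Without WT 3, Pfkfb4, Pdk1 and Ndrg1 each passed as higher in Fyn-KO (adjusted p = 0.00903, 0.0366 and 0.0103). That fit called 3121 of 14091 genes higher. It left these genes with 0 or 1 count in each WT library, so the passes are no support for a difference.

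The 5 calls depended on the model. With limma-voom their adjusted p was 0.342 to 0.577, and with DESeq2 all 5 passed (adjusted p at most 3.66e-06). Exact permutation p for the 5 genes ran from 0.0286 (Adm and Pfkfb3) to 0.0857 (Car9). Of endothelial markers, 7 genes, the summed level was 1.10, 20.04 and 834 CPM across WT and 399.7 to 412 CPM in Fyn-KO. Red blood cell markers, 5 genes, summed to 25.7, 100.5 and 667 CPM among the WT libraries and to 1068 to 1137 CPM in Fyn-KO, and 9 macrophage and microglia markers to 174 to 418 and 247 to 345 CPM, with P2ry12 at 0 in WT. These sums hide members that moved apart. Tmem119 of microglia was higher in Fyn-KO (means 0.0261 and 8.25 CPM, adjusted p = 0.0125), though it passed the filter on low counts through its Fyn-KO libraries alone. Ptprc, C1qa and Lyz2 did not pass but lay above every WT library in each Fyn-KO library (means 0.326, 29.98 and 0.992 CPM, against 9.66, 90.1 and 27.8 CPM). Csf1r, Aif1, C1qb and Cd68 had lower Fyn-KO means, with overlap. Of the endothelial genes, Pecam1 (means 0.922 and 112 CPM, adjusted p = 0.0541) and Tie1 (2.07 and 37.4 CPM) likewise lay above every WT library, and the other 5 overlapped. Of 8 lung epithelium and liver markers the sum was 514 to 1057 CPM for WT and 7.35 to 16.2 CPM in Fyn-KO (Sftpa1, Sftpb, Sftpd and Alb at 0). In 6 of them every Fyn-KO library was below every WT library, and Ttr overlapped. Apoa1 went the other way, above every WT library in each Fyn-KO library (means 0.209 and 5.27 CPM), and did not pass. The 5 neuronal markers summed to 46.9 to 122 and 36.0 to 49.1 CPM (Snap25 at 0 in WT), and 9 immediate early and stress genes to 520 to 1020 and 247 to 292 CPM (Fosb at 0 in WT). Of the latter, Fos and Jun were called lower. Hspa1b did not pass but lay above every WT library in each Fyn-KO library (means 1.93 and 25.9 CPM). Egr1 and Fosb had higher Fyn-KO means and the other stress genes lower ones, with overlap. The part of these cell types and of the stress genes in the 5 calls was not tested.

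**Figure D2:**
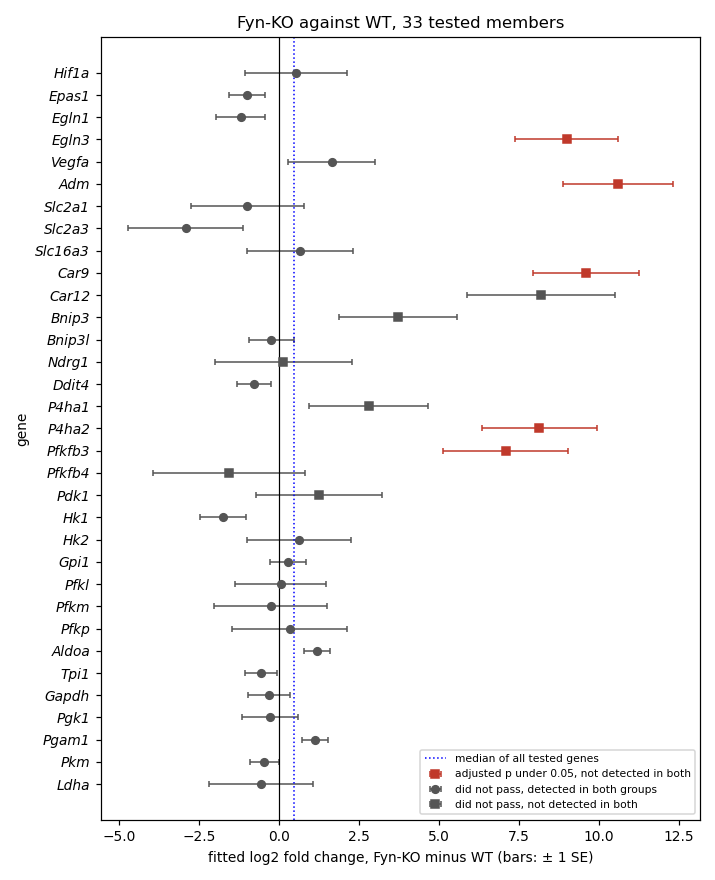
Fitted log2 fold change, Fyn-KO minus WT, of the 33 tested members with ± 1 SE, from the edgeR fit to 3 WT and 4 Fyn-KO libraries. Red marks the 5 members past the threshold, squares mark members not detected in both groups, and the dotted line is the median of all tested genes at 0.45. All red symbols are squares, and the fitted values of genes at 0 in WT are not measured sizes.

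In upper glycolysis, from hexokinase to triosephosphate isomerase, 0 of 8 members passed. All 8 were detected in both groups, and the fit to such genes alone called 0.807% higher and 2.16% lower. With so low a background, 0 of 8 says little of any difference. Hk1, the hexokinase common in brain, was at 68.1, 253 and 116 CPM across WT, against 25.7, 31.9, 63.9 and 46.5 CPM in Fyn-KO. All Fyn-KO libraries were below all WT libraries (log2 fold change -1.77 ± 0.72 SE, adjusted p = 0.122), and Hk1 passed with DESeq2 (adjusted p = 0.0309) and without WT 1 (adjusted p = 0.0380). Hk2, the hypoxia-induced hexokinase, was at 0, 83.8 and 88.6 CPM among the WT libraries and 104, 82.5, 74.4 and 128 CPM in Fyn-KO. The groups overlapped. Hk1 made up 100%, 75.1% and 56.8% of the counts of the pair in WT and 19.7%, 27.9%, 46.2% and 26.6% in Fyn-KO. The WT shares were all above the Fyn-KO shares, a difference of means of -47.2 percentage points (exact permutation p = 0.0286, adjusted p = 0.114 over 8 shares).

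Aldoa, the aldolase of muscle and most other tissues, had the highest level of the upper pathway. It was at 185, 261 and 345 CPM for WT (mean 264 ± 80.4 SD, n = 3), against 649, 605, 787 and 573 CPM in Fyn-KO (mean 653 ± 94.2 SD, n = 4), with no overlap. The means differed 2.48-fold, and the test was not passed (log2 fold change 1.19 ± 0.40 SE, adjusted p = 0.0675). Aldoa passed when libraries were scaled by their totals alone (adjusted p = 0.0163) or by upper quartiles (adjusted p = 0.0101), and without WT 3 (adjusted p = 0.00821). GENCODE M21 gives the symbol Aldoa to a pair of adjacent genes on chromosome 7, and the sources used here do not state which of them the row counts. Gpi1, the next enzyme after hexokinase, was at 169, 64.2 and 128 CPM across WT and 134 to 183 CPM in Fyn-KO, and Tpi1, which interconverts the triose phosphates, at 107, 197 and 141 against 84.5 to 117 CPM. Both overlapped.

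The phosphofructokinase genes, for the committed step, showed how far the WT libraries parted. Pfkl was at 111, 118 and 0.0839 CPM in WT, Pfkm at 0, 90.0 and 8.82 CPM, and Pfkp at 0, 8.73 and 98.8 CPM. WT 1 thus held Pfkl alone, and Pfkp made up 91.7% of the family's counts in WT 3. In Fyn-KO all 3 genes were present in each library, with Pfkl at 40.4% to 58.5%, Pfkm at 14.3% to 16.9% and Pfkp at 27.1% to 43.1% of the counts. The 3 shares did not pass the exact permutation test (adjusted p = 0.943 for each), and the WT shares spread so widely that this says little of any difference.

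Among enzymes of lower glycolysis, from Gapdh to Ldha, 0 of the 5 tested members passed. All 5 were detected in both groups, so the same low background (0.807% higher, 2.16% lower) applies. Pgam1, phosphoglycerate mutase, was at 107, 161 and 120 CPM among the WT libraries (mean 129 ± 27.9 SD, n = 3), against 266, 256, 351 and 283 CPM in Fyn-KO (mean 289 ± 42.9 SD, n = 4). It was 2.23-fold higher in the mean with no overlap, yet did not pass (log2 fold change 1.11 ± 0.40 SE, adjusted p = 0.0819), except with upper-quartile scaling (adjusted p = 0.0223) and without WT 3 (adjusted p = 0.0306). Pkm, pyruvate kinase, had the highest level of the lower pathway, at 331, 694 and 994 CPM for WT and 532, 485, 660 and 476 CPM in Fyn-KO, inside the WT range. Gapdh was at 55.8, 86.3 and 122 CPM across WT and 72.2 to 83.9 CPM in Fyn-KO. Pgk1, the first ATP-forming step, was at 105, 64.9 and 11.8 CPM among the WT libraries and 42.0 to 53.5 CPM in Fyn-KO. Ldha, which reduces pyruvate to lactate, was at 0, 151 and 283 CPM for WT, against 81.0, 122, 106 and 141 CPM in Fyn-KO. In each of these 4 genes the Fyn-KO libraries lay within the WT range. Genes such as Gapdh, Ldha, Pgam1 and Tpi1 have processed pseudogenes, and tags of these may have been assigned to either.

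Over all 35 members, 9 had every Fyn-KO library above every WT library (background 30.1% of tested genes) and 3 had every one below (background 7.32%). The 9 were the 5 called genes, Bnip3, P4ha1, Aldoa and Pgam1, and the 3 were Epas1, Egln1 and Hk1. Among members detected in both groups the counts were 2 of 22 higher (Aldoa and Pgam1, background 10.9%) and 3 of 22 lower (background 13.9%). When Rn45s was left out of the totals, Egln1 and Hk1 overlapped between the groups and Epas1 alone remained lower.

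Enolase, the step between Pgam1 and Pkm, needed a check of how tags were assigned. The row named Eno1 held 1 count in WT and 4 in Fyn-KO, far under its neighbours in the pathway. The table also holds 2 rows named Eno1b, a near-identical copy of Eno1. The transcripts Eno1-202 and Eno1b-202 of GENCODE M21 were identical at 1727 of 1736 aligned bases (99.5%), so a tag may have been assigned to either. The first of these rows was at 174, 217 and 152 CPM across WT, against 45.8, 43.0, 44.3 and 53.4 CPM in Fyn-KO (log2 fold change -2.01 ± 0.52 SE, adjusted p = 0.0256), and the second at 147, 214 and 148 CPM against 55.3, 45.6, 39.6 and 61.0 CPM (log2 fold change -1.80 ± 0.54 SE, adjusted p = 0.0456). Both rows fell, though each call was lost without any 1 Fyn-KO library (adjusted p = 0.0590 to 0.0859 and 0.105 to 0.139), with upper-quartile factors (0.0521 and 0.0865), among genes detected in both groups (0.115 and 0.184) and with a replicate block (0.434 and 0.495). The second was also lost without a filter (0.0744) and with limma-voom (0.0547). Summed with Eno1 as 1 gene, a choice made after the values were seen, enolase was at 321, 431 and 300 CPM among the WT libraries (mean 351 ± 70.2 SD, n = 3), against 101, 88.6, 84.0 and 115 CPM in Fyn-KO (mean 97.1 ± 13.9 SD, n = 4). The summed level fell 3.61 times (log2 fold change -1.90 ± 0.38 SE, adjusted p = 0.0121) and passed without each library in turn (adjusted p = 0.00779 to 0.0309), under each other scaling, filter and test tried (at most 0.0480, among genes detected in both groups), and not with a replicate block (0.211). In CPM, both Eno1b rows and the sum lay below every WT library in each Fyn-KO library, and the upstream neighbour Pgam1, which did not pass, lay above. The adjusted p of the sum does not account for the choice to sum. Whether the 2 Eno1b rows count the same tags was not checked.

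**Figure D3:**
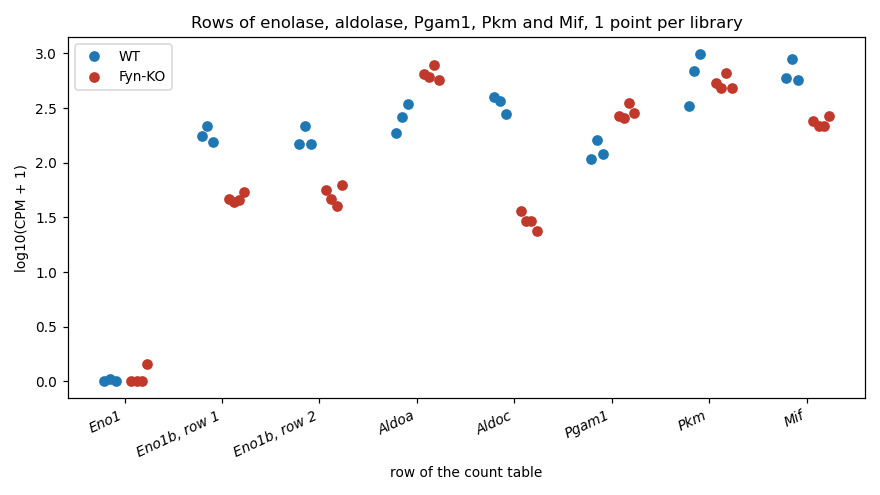
Levels of enolase, aldolase, Pgam1, Pkm and Mif rows in each library as log10(CPM + 1), blue for WT and red for Fyn-KO, 1 point per library. The rows named Eno1b, Aldoc and Mif lie lower in all 4 Fyn-KO libraries, Aldoa and Pgam1 lie higher, and the Eno1 row is near 0 throughout.

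The further genes of the pathway are read against the same background, 19% of tested genes higher, 3.51% lower and a median log2 fold change of 0.45, and small lists such as these give coarse shares. Of the genes called higher in these lists, all but Loxl2 were not detected in both groups. They passed the filter on low counts through their Fyn-KO libraries, so their adjusted p is no separate support and their fitted values are not measured sizes. Other glycolytic isoenzymes numbered 17, of which 9 could be tested, with 2 higher, 1 lower and a median log2 fold change of -2.28. Aldoc, the brain aldolase, fell. It was at 401, 369 and 278 CPM for WT (mean 349 ± 63.5 SD, n = 3), against 34.9, 28.3, 28.02 and 22.8 CPM in Fyn-KO (mean 28.5 ± 4.96 SD, n = 4), 12.2 times lower in the mean (log2 fold change -3.66 ± 0.45 SE, adjusted p = 0.0114). The call held without each library in turn and in 16 of 17 alternative fits, the exception being the fit with a replicate block. Aldoa as a share of Aldoa and Aldoc counts was 31.5%, 41.4% and 55.4% in WT, against 94.9%, 95.5%, 96.6% and 96.2% in Fyn-KO, a share chosen after the values were seen and not tested. Aldoc was thus the larger part of the pair in WT 1 and WT 2, and a small part in each Fyn-KO library. The genes called higher were Pfkfb2, a paralog of Pfkfb3 (means 0.0744 and 22.4 CPM), and Hk3, a hexokinase of myeloid cells (0 and 1.51 CPM, lost without WT 1 at adjusted p = 0.0608). Ldhb, the lactate dehydrogenase of oxidative tissues, was at 22.4, 11.4 and 0.168 CPM across WT and 76.4 to 81.6 CPM in Fyn-KO and did not pass (adjusted p = 0.195).

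**Figure D4:**
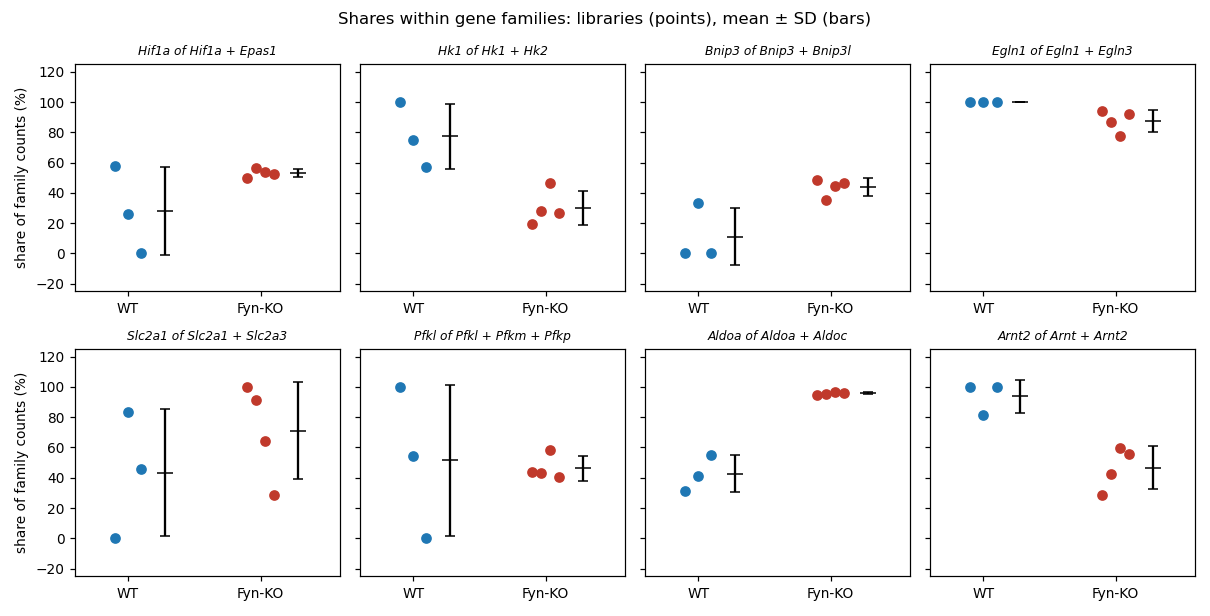
Share of a gene in the summed counts of its family, in percent, for 3 WT (blue) and 4 Fyn-KO (red) libraries, with mean ± SD beside the points. The Hk1, Bnip3, Egln1, Aldoa and Arnt2 shares do not overlap between the groups, and the Hif1a, Slc2a1 and Pfkl shares do. The Aldoa and Arnt2 shares were chosen after the values were seen.

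Of 14 partners and regulators of HIF, all tested, 2 were higher, 2 were lower and 10 did not pass (median log2 fold change 0.06), against a background of 19% higher and 3.51% lower. Cited2, which competes with HIF for the coactivator p300, was at 0, 1.59 and 0.0839 CPM among the WT libraries and 170 to 228 CPM in Fyn-KO (log2 fold change 8.55 ± 1.64 SE, adjusted p = 0.0121). The fitted value became 11.6 without WT 2, and neither Cited2 nor Cul2 was detected in both groups. Cul2, the scaffold of the von Hippel-Lindau ubiquitin ligase, had a mean of 0.0280 CPM for WT, against 26.2 CPM in Fyn-KO (adjusted p = 0.0123). Rbx1, the RING subunit of the same ligase, went the other way, from a mean of 378 to 123 CPM (log2 fold change -1.68 ± 0.43 SE, adjusted p = 0.0235). Arnt2, the neural form of the constant HIF subunit, was at 276, 93.8 and 201 CPM across WT, against 20.1, 20.9, 29.8 and 46.6 CPM in Fyn-KO, and fell (log2 fold change -2.83 ± 0.71 SE, adjusted p = 0.0213). The call of Arnt2 was lost without Fyn-KO 1, 2 or 3 (adjusted p = 0.0529 to 0.0679) and that of Rbx1 without any 1 Fyn-KO library (0.0555 to 0.0740). Arnt was at 0, 21.7 and 0 CPM among the WT libraries and 19.9 to 50.2 CPM in Fyn-KO and did not pass.

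Of 41 further genes known to rise in hypoxia, 38 were tested, with 7 higher, 2 lower and 29 not passed (median log2 fold change 0.75), near the background of 19% higher and 3.51% lower. The 3 higher genes of lowest p were Ak4, a mitochondrial adenylate kinase (no count in WT, mean 8.19 CPM in Fyn-KO), Narf (no count in WT, mean 28.1 CPM) and Angptl4, an inhibitor of lipoprotein lipase (means 0.321 and 89.9 CPM). Mif, a cytokine made under hypoxia, fell from 591, 880 and 566 CPM in WT to 242, 215, 218 and 265 CPM in Fyn-KO (log2 fold change -1.57 ± 0.28 SE, adjusted p = 0.0121). Jmjd6, an oxygen-dependent hydroxylase, fell from 180, 118 and 137 CPM to 29.8, 30.7, 38.2 and 21.3 CPM (adjusted p = 0.0337), a call lost without any 1 Fyn-KO library (adjusted p = 0.0590 to 0.107). The call of Mif was lost among genes detected in both groups (adjusted p = 0.0533) and with a replicate block (0.206). With limma-voom, 0 of the genes called higher in these further lists passed. Of those called lower, Mif and Aldoc passed, and Arnt2, Rbx1 and Jmjd6 did not (adjusted p = 0.0902, 0.0632 and 0.0592). Of 17 tested genes of pyruvate and lactate fate, 1 was higher, the phosphatase Pdp2 that activates pyruvate dehydrogenase (no count in WT, mean 22.2 CPM in Fyn-KO), and 0 were lower. Of 14 genes of the pentose phosphate pathway and of glycogen, 2 were higher and 0 lower. In both lists the share called higher was under the background of 19%. The 2 genes of the latter list were H6pd, hexose-6-phosphate dehydrogenase (means 0.0280 and 37.3 CPM), and Pygm, glycogen phosphorylase of muscle (means 0.0560 and 21.4 CPM). The call of Pygm was lost without Fyn-KO 1, 2 or 4 (adjusted p = 0.0530 to 0.0568).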

How the data were processed

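Per the submitters' processing notes, Bowtie2, bedtools and DESeq2 1.32.0 were used with mm10 (GRCm38). The deposited table, described by the authors as modified, holds whole-number counts per gene and library. What was modified, the gene annotation, the strand setting and the other versions are not stated in the sources used here. Columns were joined to samples by their labels, except that of WT 3, whose name fits more than 1 WT label and which entered only as a library of the WT group. No pair of libraries held identical values.

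CPM are counts per 1000000 library counts. Genes were filtered with filterByExpr (minimum count 10, total 15) and scaled by TMM factors, and the groups were compared by the two-sided quasi-likelihood F test of edgeR 4.0.16 (R 4.3.3), with Benjamini-Hochberg adjustment over all 13122 tested genes and a threshold of 0.05. The SE of a log2 fold change is its size over the square root of F. Single values and family shares were compared by exact two-sided permutation over 35 splits, and shares were tested where each library had at least 20 counts of the family. Detected in both groups means 10 or more counts in 2 or more WT and 3 or more Fyn-KO libraries. A fold against a group at 0 uses a floor of 3 counts per library. Floors and 95% intervals cover counting error only, since tags had no molecular identifiers.

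Alternatives were RLE, upper-quartile and no scaling factors, Rn45s left out, other filters, DESeq2 1.42.0, limma-voom (limma 3.58.1) with quality weights, a replicate block and each library left out. Scripts were tested on simulated counts with a capped spread, in which every gene was expressed in both groups. That setting does not cover genes with few or no WT counts, such as the members called higher. The members and lists were chosen with earlier results of these data known. Values in every library are given for members past the threshold, members without overlap, the HIF alpha subunits and the highest member of each role. Of each further list, up to 3 genes past the threshold by p in each direction are named. Other values were chosen after they were seen. A further gene of the isoenzyme list is not reported here.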

Additional observations from a re-analysis of the deposited data

Results flagged for a closer look

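The 35 members were examined for a library far from the others within the 4 Fyn-KO libraries, and chance alone places about 1 in 20 groups past the limit used (the 95% critical value of Dixon's ratio of gap to range). Car12 stood out by its absence from Fyn-KO 4, at 0 CPM against 4.04 to 4.48 CPM in the other Fyn-KO libraries. Pfkm was at 28.4 CPM in Fyn-KO 4 and at 22.2 to 22.8 CPM in the others. The row named Eno1 was at 0.446 CPM in Fyn-KO 4, its 4 counts, and at 0 in the others. All 3 concerned the same library. A row with counts in that library alone, such as Eno1, always passes the limit, and flags by chance are to be expected at that rate among 35 members. Whether Fyn-KO 4 differs from the other libraries was not tested.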

How the results depend on the processing

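The 5 members called higher had 79 alternative values, and 14 of these no longer passed the threshold. These were the values of all 5 under limma-voom and under the replicate block, and of Pfkfb3 without each of the Fyn-KO libraries. All 79 kept their direction, which was fixed in advance because each gene had at most 6 counts in any WT library. None of the 5 could enter the fit to genes detected in both groups. The number of genes called higher, 2493, became 52 among genes detected in both groups, 24 with limma-voom and 2190 to 4585 with 1 library left out, the highest without WT 2. The number lower, 461, became 139 among genes detected in both groups, 918 with DESeq2 and 247 to 839 with 1 library left out. Of the members, 5 higher became 0 among genes detected in both groups and 0 with limma-voom, and 4 to 10 with 1 library left out (8 without WT 2 and 10 without WT 3). Without WT 2 the background was 4585 of 13991 genes higher, and without WT 3 it was 3121 of 14091, with 34 members tested in each. The count of members lower, 0, became 1 with DESeq2 and 0 to 1 with 1 library left out, Hk1 in both cases. Members without overlap numbered 9 to 15 higher and 3 to 8 lower with 1 library left out, and 1 lower with Rn45s outside the totals. The share of all tested genes without overlap was not counted in these settings, and groups separate more easily with fewer libraries. These member counts are therefore not read as a result about the members. Among genes detected in both groups, the calls in further lists became 0 higher and 0 lower for HIF partners, 1 (Loxl2) and 0 for hypoxia-induced genes, 0 higher for isoenzymes, 0 for pyruvate fate and 0 for pentose phosphate and glycogen. Fewer genes enter that fit. For the other changes the cause was not tested.

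The replicate numbers did not pair the libraries, with correlations of deviations of -0.0142, -0.000155 and -0.0205 between libraries of the same number. With the replicate number as a block, 188 genes were higher, 135 lower and 0 members higher. The 5 calls then had adjusted p of 0.206 to 0.297, and the sign turned in fits of the block to 0.43 for Slc2a1, 0.25 for Bnip3l, 6.99 for Pfkfb4, 1.53 for Pfkm, 0.11 for Pgk1, 0.80 for Ldha (log2 fold changes).

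Fitted signs of members that did not pass turned as follows, in log2 fold changes. With limma-voom they became 0.94 for Slc2a1, 0.80 for Bnip3l, 6.67 for Pfkfb4, 1.77 for Pfkm, 0.0171 for Pgk1, 1.91 for Ldha. With upper-quartile factors they became 0.34 for Bnip3l, 0.14 for Gapdh, 0.0113 for Pkm, with library sizes alone 0.0195 for Bnip3l, -0.0937 for Pfkl, with RLE factors -0.0198 for Pfkl, with DESeq2 -0.0197 for Pfkl, and among genes detected in both groups 0.24 for Bnip3l, 0.0788 for Gapdh, 0.00877 for Pgk1. Upper-quartile factors moved the median of all tested genes from 0.45 to 0.76. Leaving out 1 library gave ranges that crossed 0, namely -0.0629 to 1.88 for Hif1a, -1.58 to 0.45 for Slc2a1, -0.68 to 0.95 for Bnip3l, -0.46 to 9.03 for Ndrg1, -1.06 to 0.00133 for Ddit4, -2.16 to 10.38 for Pfkfb4, -0.12 to 0.50 for Gpi1, -0.55 to 0.56 for Pfkl, -0.85 to 2.02 for Pfkm, -0.26 to 4.01 for Pfkp, -0.60 to 0.28 for Gapdh, -0.73 to 0.47 for Pgk1, -0.82 to 0.25 for Pkm, -1.17 to 0.85 for Ldha. The differences in share, in percentage points, ranged from -30.9 to 19.1 for Pfkl, -9.32 to 11.5 for Pfkm and -9.79 to 36.1 for Pfkp.

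Depth limits the low genes: 3 counts amount to 0.252 CPM in the shallowest WT library and 0.334 CPM in the shallowest Fyn-KO library, and 5 members had no count in WT.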

Other observations

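Other genes of the list of hypoxia-induced genes that were called higher, outside the rule for named genes, were Loxl2, Lox, Cxcr4 and Edn1. Loxl2 and Lox, which cross-link collagen, had means of 3.37 and 0.110 CPM for WT and 130 and 22.2 CPM in Fyn-KO (edgeR adjusted p = 0.0123 and 0.0218). Loxl2 was the 1 gene of that list detected in both groups that passed with only such genes in the fit. Cxcr4, a chemokine receptor, and Edn1, the vasoconstrictor endothelin-1, had means of 0.0821 and 0.0840 CPM for WT and 17.6 and 34.1 CPM in Fyn-KO (adjusted p = 0.0176 and 0.0246). The call of Lox was lost without Fyn-KO 1, 2 or 4 (adjusted p = 0.0537 to 0.0589) and that of Edn1 without any 1 Fyn-KO library (0.0554 to 0.0711). Lox, Cxcr4 and Edn1 passed the filter on low counts through their Fyn-KO libraries alone.

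Of the constant HIF subunits, Arnt2 was 100%, 81.2% and 100% of Arnt and Arnt2 counts in WT and 28.6%, 42.2%, 59.9% and 55.5% in Fyn-KO, without overlap. Ldhb was 100%, 7.05% and 0.0594% of Ldha and Ldhb counts in WT and 35.7% to 48.5% in Fyn-KO, so the lactate dehydrogenase shares overlapped. Both shares were chosen after the values were seen and were not tested.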
